A study of Mus musculus with 12 samples.

Results

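The mitochondrial respiratory chain was examined through 96 genes of the 18193 that the arrays measured with a probe set naming a single gene. They were the genes whose symbol starts with Nduf, Sdha to Sdhd, Uqcr, Cox4i, Cox5, Cox6, Cox7, Cox8 or Atp5, with Cycs and Cyc1. Each gene was represented by its brightest probe set. Of the 96, 82 encode subunits of complexes I to V or cytochrome c, 12 encode assembly factors of complexes I and II, and 2 encode the related proteins Cox7a2l and Ndufa4l2. The samples were 6 hepatocellular carcinomas (HCC) that arose without treatment and, as controls, 6 normal livers, all from B6C3F1 mice at an age of 2 years in a National Toxicology Program bioassay. B6C3F1 is the first-generation hybrid of the C57BL/6 and C3H strains. Total RNA of each was hybridised to 1 single-colour Affymetrix array, and the labels give neither the sex of the mice nor how much of each sample was tumour.

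Complex I takes electrons from NADH and complex II takes them from succinate. Both pass them through ubiquinone to complex III, and cytochrome c carries them on to complex IV, which reduces oxygen. Complexes I, III and IV pump protons, and complex V, the ATP synthase, uses the gradient to make ATP, which the hepatocyte spends on gluconeogenesis, urea synthesis and biosynthesis.

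RNA levels of many respiratory chain genes were lower in HCC by modest amounts. By the test described next, 55.9% of complex I subunit genes, 50% of complex II, 44.4% of complex III and 35.3% of complex V were lower. In complex IV the share was 11.8%, nearer to that of all genes. However, 7 of its 17 genes were forms restricted to other tissues, with mean levels of only 4.60 to 8.46. In this split, made after the values were seen, all 10 liver-type genes had a negative difference, and 2 of the 10 passed. All levels are log2(intensity + 16) after quantile normalization, and all differences are HCC minus normal liver on that scale. Of the 96 genes, 36 were lower in HCC at an adjusted p under 0.05 (limma, adjusted over all genes), or 37.5%, whereas 7.24% of all genes were lower. Only Cox7a2l was higher, against 6.48% of all genes, and 59 did not pass the test. The difference was negative for 84 of the 96 and its median was -0.39, which is a level 23.5% lower in HCC, whereas the median over all genes was -0.04. In 32 of the 96 genes all 6 HCC lay below all 6 normal livers, which held for 4.5% of all genes, and in 1 gene all 6 HCC lay above, which held for 4.25%. In 64 genes, or 66.7%, each HCC lay below the mean of the normal livers, against 14.8% of all genes.

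These genes are bright, and bright genes passed the test more often, so the count was also read among bright genes alone, a comparison added after the data were seen. By the same calls, 19.5% of the 1163 genes with a mean level of at least 12 were lower and 13.3% higher in HCC. Of the 70 respiratory chain genes among them, 31 were lower, or 44.3%, and 1 was higher. When the fit and the adjustment were repeated over these 1163 genes alone, which passes more genes, 29.9% of them were lower and 22.8% higher, and 51 of the 70 were lower, or 72.9%. The count of 36 lower genes stood between 21 and 40 when each array was left out in turn, where 5.05% to 7.93% of all genes were lower. The count was 21 without normal 5, 22 without HCC 4 and 23 without normal 4, beside 5.08%, 5.87% and 5.05% of all genes.

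**Figure D1:**
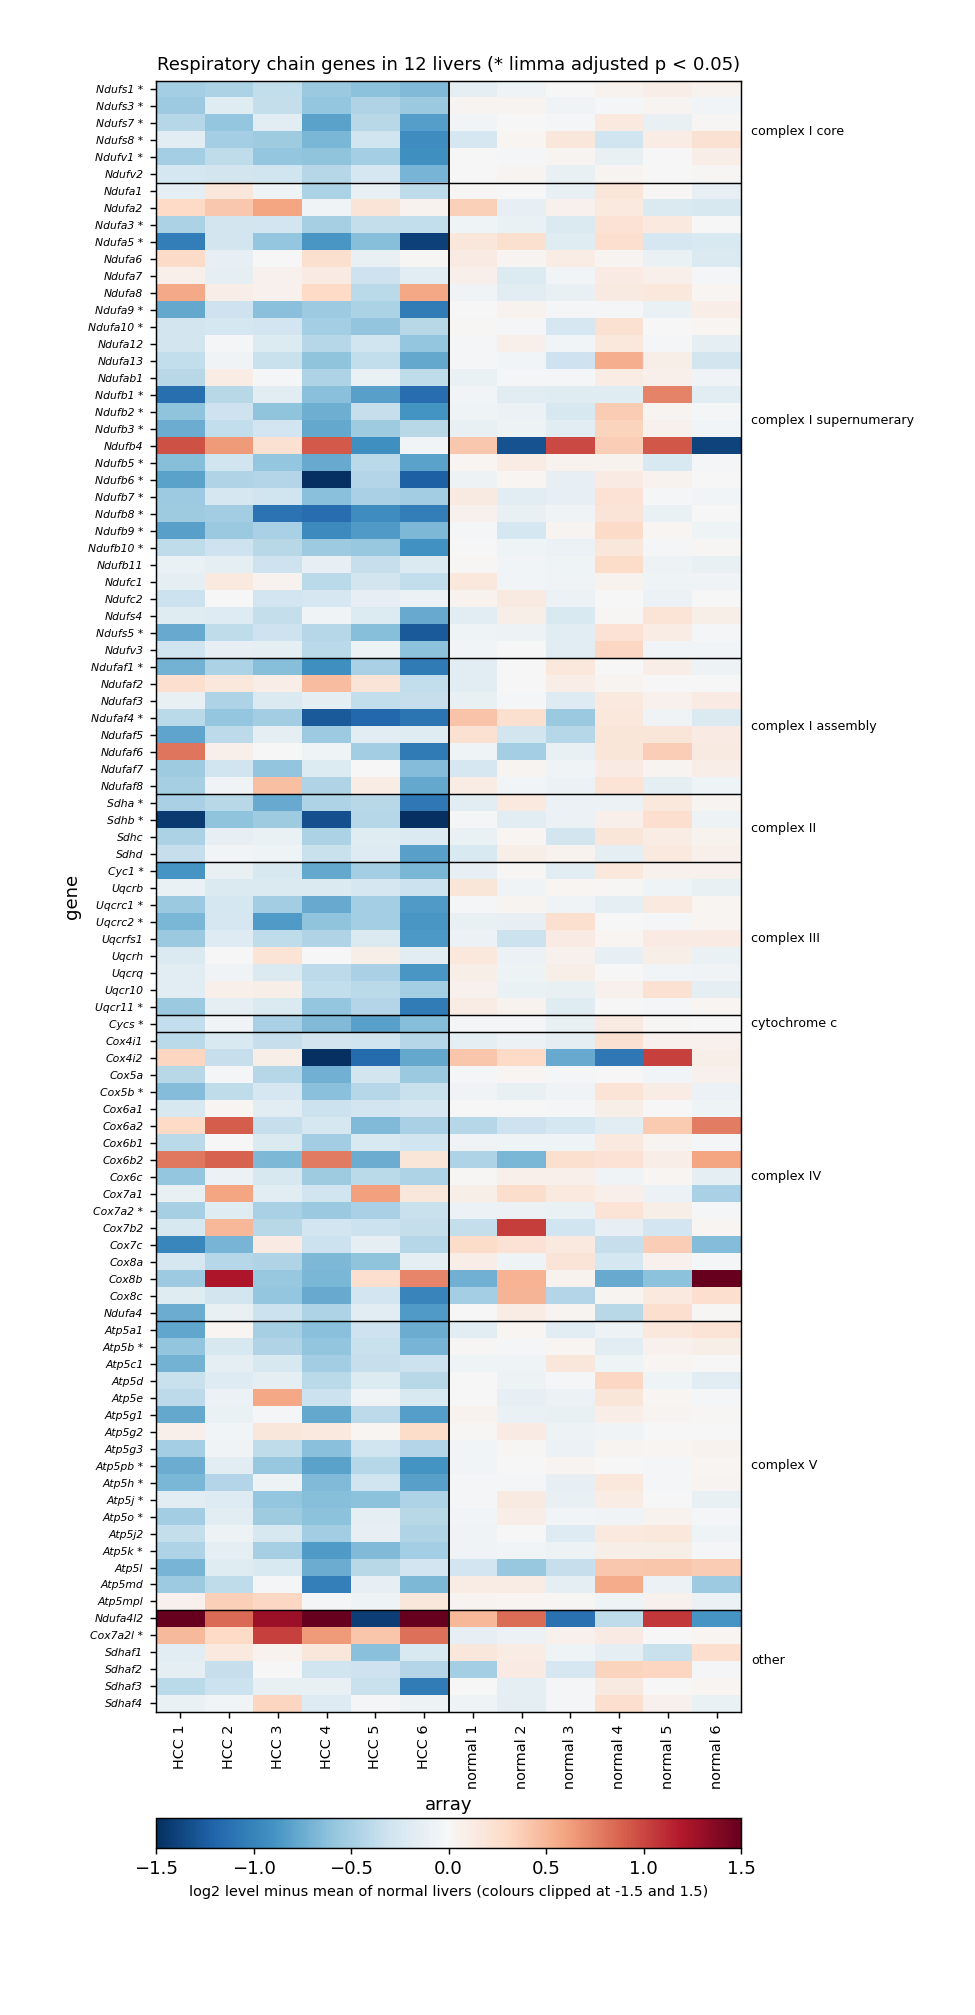
Heat map of the 96 genes (rows, by complex) in the 6 HCC and the 6 normal livers (columns), coloured by the level minus the mean of the normal livers on the log2 scale; asterisks mark genes past the test. Most rows are lower across all 6 HCC columns, and the row of Cox7a2l is higher in all 6.

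The promoters of the genes were read because genes of the chain are known to share regulators in mammals, among them NRF1, the ETS factor GABP and YY1. RefSeq (GRCm38.p6) gave 84 promoters for 79 of the 96 genes, each a window of 300 bases that starts 250 bases before the gene. The NRF1 palindrome, which reads GCGC, AT and GCGC in a row, was present in 7.14% of them, against 0.971% of the 32851 promoters of all genes and 1.54% of the 18006 promoters of genes measured here. The looser form with any 2 bases between GCGC and GCGC, which includes the strict form, was present in 26.2%, against 6.23% and 9.92% in the same backgrounds. The ETS motif CCGGAAG was present in 26.2%, against 8.86% and 13%, and the YY1 motif AAGATGGC in 11.9%, against 2.75% and 3.39%. The TATA box TATAAA, searched on the sense strand only, was present in 3.57%, against 8.32% and 6.2%, whereas the other motifs were searched on both strands.

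The motifs occurred among genes lower in HCC and among genes that did not pass the test. The strict NRF1 motif was in 8.82% of the 34 promoters of lower genes and in 6.12% of the 49 promoters of genes not past the test. The ETS motif was in 29.4% of promoters of lower genes and 24.5% of promoters of genes not past the test. The YY1 motif was in 17.6% of promoters of lower genes and 8.16% of promoters of genes not past the test, which is 6 against 4 promoters, and no test was made of these shares. The 150 bases before the start of 3 genes that were lower in HCC and of Cox7a2l, the gene that was higher, show what the NRF1 and ETS motifs look like in place. They are written 5′ to 3′ on the strand of the gene, and capitals mark a motif.
Ndufs3 (chr2:90904722-90904871, minus strand, ETS motif): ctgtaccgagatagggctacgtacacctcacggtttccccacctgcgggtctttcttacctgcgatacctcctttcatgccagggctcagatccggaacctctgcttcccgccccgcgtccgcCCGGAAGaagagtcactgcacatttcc
Ndufaf4 (chr4:24897933-24898082, plus strand, NRF1 motif): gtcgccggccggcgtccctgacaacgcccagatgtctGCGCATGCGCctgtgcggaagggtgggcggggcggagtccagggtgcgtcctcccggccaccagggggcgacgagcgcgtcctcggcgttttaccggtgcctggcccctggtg
Atp5k (chr5:108434400-108434549, minus strand, NRF1 motif): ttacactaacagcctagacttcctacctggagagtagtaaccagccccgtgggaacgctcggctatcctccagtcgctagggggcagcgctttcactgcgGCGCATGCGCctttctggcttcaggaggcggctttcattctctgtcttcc
Cox7a2l (chr17:83514334-83514483, minus strand, no motif of these): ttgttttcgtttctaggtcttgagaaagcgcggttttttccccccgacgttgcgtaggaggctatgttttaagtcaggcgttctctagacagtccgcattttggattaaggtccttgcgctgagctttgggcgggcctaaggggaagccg
The NRF1 palindrome begins 113 bases before the start of Ndufaf4 and 50 bases before that of Atp5k. In Ndufs3 the ETS motif begins 27 bases before the start. A match of letters is a description of the window and not evidence of binding.

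Complex I core subunits carry the flavin, the iron-sulphur clusters and the ubiquinone site. All 6 measured core genes had a negative difference, with a median of -0.52, and 5 of the 6 passed the test. Ndufv1, whose protein binds NADH and the flavin, had a lowest, median and highest level of 12.21, 12.59 and 12.76 in HCC, against 13.02, 13.13 and 13.23 in normal livers. The groups did not overlap, and the difference was -0.58 ± 0.12 (SE, limma adjusted p = 0.00689). Ndufs1, which holds iron-sulphur clusters of the NADH arm, had 11.30, 11.43 and 11.59 in HCC, against 11.82, 11.99 and 12.06 in normal livers. It too was separated, by -0.53 ± 0.11 (limma adjusted p = 0.00647). Ndufs7 carries the last cluster before ubiquinone and differed by -0.54, and Ndufs3, of the same arm, differed by -0.44 (limma adjusted p = 0.0197 and 0.0192). Both were separated between the groups. Ndufs8 had 12.97, 13.37 and 13.73 in HCC, against 13.60, 13.96 and 14.12 in normal livers, so the groups overlapped. Its difference of -0.52 passed narrowly (limma adjusted p = 0.0472) and did not pass in 8 of the 12 fits that left out an array (largest limma adjusted p 0.0987).

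Supernumerary subunits surround the core and are needed to build or hold complex I. Of 28 measured genes, 14 were lower, none was higher, and 24 had a negative difference, with a median of -0.38 and a range of -0.88 to 0.30. In 13 of the 28, all 6 HCC lay below all 6 normal livers. Ndufb8, a subunit of the membrane arm (chromosome 19, 44548571 to 44555442), had 11.95, 12.12 and 12.58 in HCC, against 12.98, 13.08 and 13.30 in normal livers. No HCC reached the lowest normal liver, and the difference was -0.88 ± 0.15, a level 45.6% lower (limma adjusted p = 0.00233). Ndufb9, of the same arm, had 13.18, 13.39 and 13.66 in HCC, against 13.87, 14.14 and 14.42 in normal livers. Its groups were also apart, by -0.72 ± 0.13 (limma adjusted p = 0.00400), and the mean over its probe sets gave -0.47 (limma adjusted p = 0.0533). That mean takes in a dim probe set, with a mean level of 4.94, which gave 0.01. The other bright probe set gave -0.69 (limma adjusted p over probe sets 0.00619).

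Ndufb6, another membrane-arm subunit, had 11.90, 12.87 and 13.06 in HCC, against 13.36, 13.50 and 13.62 in normal livers. Its HCC values spread widely while the normal livers lay close together: HCC 4 and HCC 6 stood at -1.59 and -1.23 relative to the normal mean, and the other 4 tumours between -0.43 and -0.80. The difference was -0.82 ± 0.20 (limma adjusted p = 0.0182). Ndufa5, of the ubiquinone-binding arm, had 11.23, 11.88 and 12.36 in HCC, against 12.38, 12.63 and 12.88 in normal livers, which leaves the groups just apart (-0.80 ± 0.19, limma adjusted p = 0.0164). A second probe set of Ndufa5 gave -0.95. Ndufs5 differed by -0.63, and its call was lost without normal 4 or normal 5 (largest limma adjusted p 0.0567, and 0.0244 with all arrays). Ndufb1 had 7.18, 7.61 and 8.17 in HCC, against 8.15, 8.16 and 9.07 in normal livers, so that the groups overlapped. Its difference of -0.72 (limma adjusted p = 0.0457) did not pass in 10 of the 12 fits that left out an array (largest limma adjusted p 0.0924), nor with either other scaling.

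The other 8 lower genes of this group were Ndufa3, Ndufa9, Ndufa10, Ndufb2, Ndufb3, Ndufb5, Ndufb7 and Ndufb10, with differences of -0.38 to -0.63. Only 4 of the 28 had a positive difference, and they are named here after their values were seen: Ndufa2 (0.25), Ndufa6 (0.05), Ndufa8 (0.20) and Ndufb4 (0.30), none past the test. The probe set of Ndufb4 had the largest SD among HCC in the group and was dim, at 4.61, 5.97 and 6.49 in HCC, against 4.15, 5.92 and 6.53 in normal livers.

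Among 8 assembly factors of complex I, which act during construction and are not part of the finished enzyme, 2 were lower and none was higher, with a median of -0.32. Ndufaf1, a member of the complex that inserts the early membrane arm (chromosome 2, 119655446 to 119662839), had 10.12, 10.50 and 10.71 in HCC, against 11.01, 11.18 and 11.34 in normal livers. The groups were separated, by -0.72 ± 0.13 (limma adjusted p = 0.00464). Ndufaf4, whose NRF1 palindrome is printed above, had 9.71, 10.14 and 10.57 in HCC, against 10.41, 11.03 and 11.40 in normal livers, with some overlap and a difference of -0.84 ± 0.21 (limma adjusted p = 0.0196). Ndufaf6 varied most among HCC in this group, with 8.83, 9.85 and 10.70 in HCC, against 9.38, 9.92 and 10.26 in normal livers. Relative to the normal mean HCC 1 stood at 0.81 and HCC 6 at -1.06, and the difference of the means, -0.13, did not pass (limma adjusted p = 0.807).

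**Figure D2:**
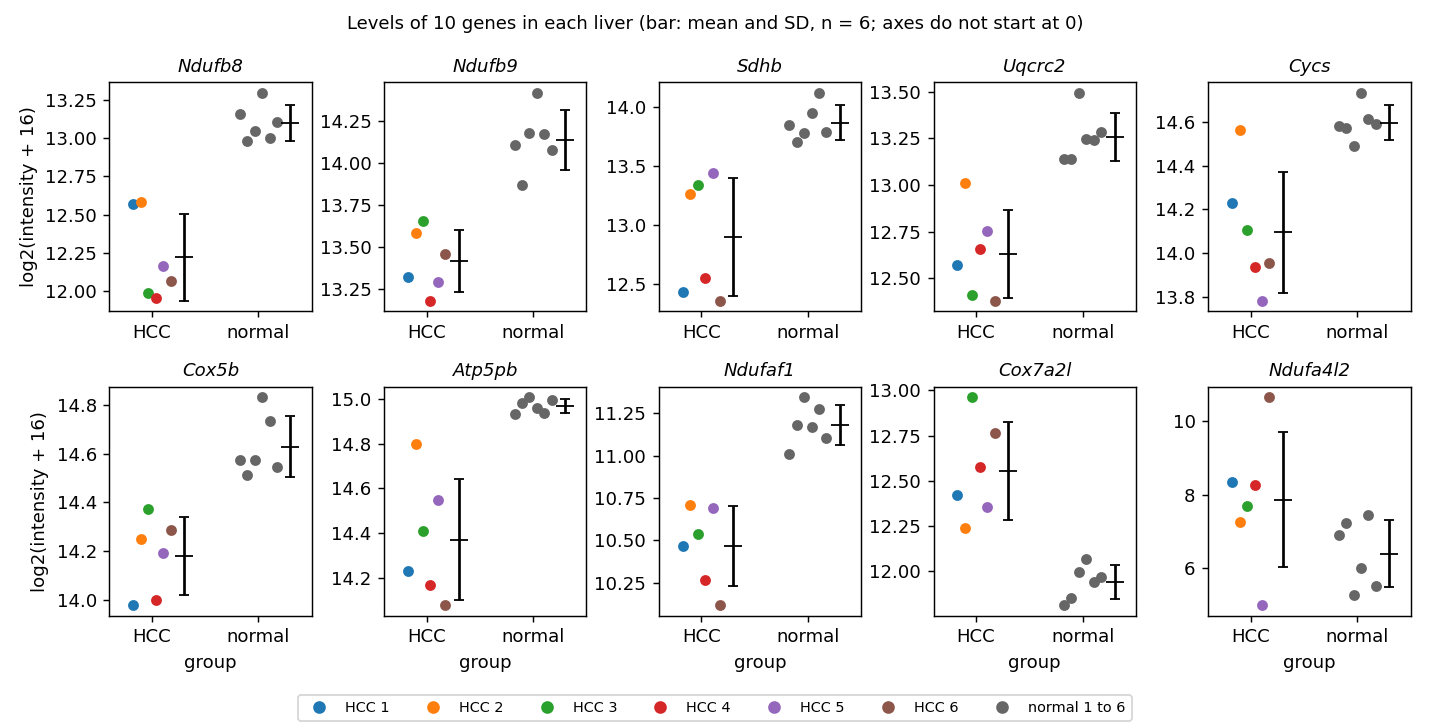
Levels, as log2(intensity + 16) after quantile normalization, of selected genes in the 6 HCC (left of each pair) and the 6 normal livers (right), 1 point per array with the mean and SD (bars, n = 6). Ndufb8 and Sdhb lie lower in all 6 HCC, Cox7a2l lies higher in all 6, and Ndufa4l2 spreads between 5.0 and 10.65 among HCC.

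Complex II is both a respiratory enzyme and succinate dehydrogenase of the citric acid cycle. All 4 of its genes had a negative difference, and 2 of the 4 were lower, both catalytic subunits. Sdhb, the iron-sulphur subunit (chromosome 4, 140961271 to 140979198), had 12.35, 12.91 and 13.44 in HCC, against 13.71, 13.82 and 14.13 in normal livers. No HCC reached the normal range, and the difference of -0.97 ± 0.21, a level 49.0% lower, was the most negative of the 96 genes (limma adjusted p = 0.0102). The tumours differed among themselves: relative to the normal mean, HCC 1, HCC 4 and HCC 6 stood at -1.44, -1.32 and -1.52, and HCC 2, HCC 3 and HCC 5 at -0.60, -0.53 and -0.43. Sdha, the flavoprotein, had 12.58, 13.18 and 13.24 in HCC, against 13.48, 13.63 and 13.82 in normal livers, also without overlap (-0.60 ± 0.14, limma adjusted p = 0.0156). The mean over the probe sets of Sdha gave -0.43, which did not pass (limma adjusted p = 0.0616). That mean takes in 2 dim probe sets, with mean levels of 7.18 and 5.13, which gave 0.12 and -0.36. The other bright probe set gave -0.88 (limma adjusted p over probe sets 0.00519). The anchors Sdhc and Sdhd differed by -0.26 and -0.30 (limma adjusted p = 0.200 and 0.215), and their groups overlapped. A second, less bright probe set gave -0.51 for Sdhc, which passed, and -0.57 for Sdhd, which did not (limma adjusted p over probe sets 0.0335 and 0.126). With median centring Sdhc differed by -0.49 and passed (limma adjusted p = 0.0326). Whether the catalytic genes differ from the anchors in their change was not tested.

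In complex III, which oxidises ubiquinol and reduces cytochrome c, all 9 genes had a negative difference, with a median of -0.44, and 4 were lower. Uqcrc2, a core protein on the matrix side, had 12.38, 12.61 and 13.01 in HCC, against 13.14, 13.24 and 13.49 in normal livers, a separation of -0.63 ± 0.14 (limma adjusted p = 0.00970). Its partner Uqcrc1 had 11.85, 12.16 and 12.44 in HCC, against 12.56, 12.70 and 12.84 in normal livers, also separated (-0.58 ± 0.13, limma adjusted p = 0.0102). Cyc1, the haem protein that hands electrons to cytochrome c, differed by -0.53 and Uqcr11, a small subunit, by -0.50 (limma adjusted p = 0.0355 and 0.0497). In both genes 1 or more HCC lay within the normal range, and the calls were lost in 8 and 10 of the 12 fits that left out an array (largest limma adjusted p 0.0768 and 0.0902). Cytochrome c itself, Cycs, had 13.78, 14.03 and 14.56 in HCC, against 14.49, 14.59 and 14.73 in normal livers. HCC 2 lay inside the normal range, at -0.04 relative to the normal mean, while HCC 5 lay at -0.82. The difference of -0.50 ± 0.14 (limma adjusted p = 0.0322) did not pass with the deposited scaling (largest limma adjusted p over the scalings 0.0559) or in 9 of the 12 fits that left out an array (largest limma adjusted p 0.0702).

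Complex IV, cytochrome c oxidase, has several subunits that exist as paralogues, one used in liver and most tissues and one restricted to muscle, brown fat, lung or testis. Of its 17 measured genes, 2 were lower, or 11.8%, against 7.24% of all genes. None was higher and 14 had a negative difference, with a median of -0.38. The split into liver-type and tissue-restricted genes was made after the values were seen. All 10 liver-type genes had a negative difference, between -0.21 and -0.45 with a median of -0.41. The 7 tissue-restricted genes (Cox4i2, Cox6a2, Cox6b2, Cox7a1, Cox7b2, Cox8b and Cox8c) had a median of -0.09, and none passed the test. Their mean levels were 4.60 to 8.46, where the scale has a floor of 4, and Cox7b2 lay nearest to the floor.

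Cox5b, a subunit on the matrix side, had 13.98, 14.22 and 14.37 in HCC, against 14.51, 14.57 and 14.83 in normal livers. The groups did not overlap, and the difference was -0.45 ± 0.12 (limma adjusted p = 0.0268). Of the 5 other probe sets of Cox5b, 4 were also negative, and 1 dim probe set with a mean level of 6.71 gave 1.40 (limma adjusted p over probe sets 0.00288). The mean over all probe sets of Cox5b gave -0.23, which did not pass (limma adjusted p = 0.268). Cox7a2 had 14.19, 14.27 and 14.57 in HCC, against 14.66, 14.70 and 14.95 in normal livers, apart by -0.42 ± 0.12 (limma adjusted p = 0.0290). Both calls were lost with the deposited scaling (limma adjusted p = 0.0645 and 0.0839), and that of Cox7a2 also with median centring (0.0599). They were also lost in 4 of the 12 fits that left out an array for Cox5b and in 6 for Cox7a2 (largest limma adjusted p 0.0625 and 0.0673).

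The other liver-type subunits lay close to the threshold or short of it. Cox8a differed by -0.43, Cox6c by -0.38 and Cox5a by -0.40 (limma adjusted p = 0.0510, 0.0514 and 0.0563). With the deposited scaling Cox8a differed by -0.53 and Cox6c by -0.44, and both passed (limma adjusted p = 0.0159 and 0.0389), as they also did with median centring. Cox4i1, a large nuclear-encoded subunit, had 13.89, 13.99 and 14.08 in HCC, against 14.17, 14.30 and 14.54 in normal livers. These groups did not overlap, although the difference of -0.33 did not pass (limma adjusted p = 0.0711). Cox7c was measured only by a dim probe set, which differed by -0.41 (limma adjusted p = 0.262). Cox6b1 and Cox6a1 differed by -0.28 and -0.21, and Ndufa4, once assigned to complex I and now to complex IV, by -0.44 (limma adjusted p = 0.144, 0.228 and 0.0990).

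Among the tissue-restricted paralogues, Cox4i2, a lung form, differed by -0.60 and Cox8c, a testis form, by -0.51 (limma adjusted p = 0.372 and 0.125). The muscle forms Cox6a2, Cox7a1 and Cox8b differed by -0.09, 0.13 and 0.07, and the testis forms Cox6b2 and Cox7b2 by 0.20 and -0.19 (limma adjusted p between 0.674 and 0.947). The groups overlapped in each of these genes. Cox8b had the largest SD among HCC in complex IV (0.789 in HCC and 0.895 in normal livers), and each of Cox8b, Cox6a2 and Cox7b2 changed sign when certain arrays were left out. Cox7b was not analysed here.

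In complex V, 6 of 17 genes were lower, none was higher and 15 had a negative difference, with a median of -0.43. In all 6 lower genes except Atp5h every HCC lay below every normal liver. Atp5pb, subunit b of the peripheral stalk, had 14.08, 14.32 and 14.80 in HCC, against 14.93, 14.97 and 15.01 in normal livers. The normal livers were within a narrow band and all HCC lay under it, by -0.60 ± 0.14 on average (limma adjusted p = 0.0126). Atp5b, the catalytic beta subunit, had 14.12, 14.29 and 14.58 in HCC, against 14.66, 14.84 and 14.90 in normal livers, with no overlap (-0.48 ± 0.12, limma adjusted p = 0.0171). Atp5k, subunit e, which takes part in dimer formation, had 12.42, 12.76 and 13.13 in HCC, against 13.19, 13.23 and 13.36 in normal livers, again apart (-0.52 ± 0.13, limma adjusted p = 0.0197). The stalk subunits Atp5h, Atp5j and Atp5o differed by -0.50, -0.44 and -0.40 (limma adjusted p = 0.0350, 0.0393 and 0.0482). Atp5h did not pass with the deposited scaling, with median centring or with the mean over its probe sets (limma adjusted p = 0.111, 0.0676 and 0.0708). The calls of these 3 were lost in 9 to 10 of the 12 fits that left out an array (largest limma adjusted p 0.0765, 0.0828 and 0.0954). Atp5md varied most among HCC, with 12.33, 12.89 and 13.34 in HCC, against 12.81, 13.36 and 13.91 in normal livers, and did not pass (limma adjusted p = 0.169).

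The 3 genes for subunit c, which encode the same mature protein of the rotor ring, were looked at after their values were seen. Atp5g1 and Atp5g3 differed by -0.48 and -0.39 and Atp5g2 by 0.11 (limma adjusted p = 0.0736, 0.0506 and 0.559), so none of the 3 passed the test. Atpif1, the inhibitor of ATP hydrolysis by complex V, is outside the symbol rule and moved the other way. It had 10.99, 11.18 and 11.42 in HCC, against 10.04, 10.25 and 10.52 in normal livers. All 6 HCC lay above all 6 normal livers, by 0.94 ± 0.14, a level 92.5% higher (limma adjusted p = 0.000911). The mean over its 3 probe sets gave 0.46, which did not pass (limma adjusted p = 0.101).

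Cox7a2l, whose protein joins complexes III and IV in supercomplexes (chromosome 17, 83501917 to 83514333), was the only one of the 96 genes that was higher. Its levels were 12.24, 12.50 and 12.96 in HCC, against 11.81, 11.95 and 12.07 in normal livers. Every HCC lay above every normal liver, by 0.30 in HCC 2 to 1.02 in HCC 3 over the normal mean, and the difference was 0.62 ± 0.14, a level 53.2% higher (limma adjusted p = 0.0128). With each array centred on its median in place of quantile normalization the difference was 0.45 and did not pass (limma adjusted p = 0.0630). Its 2 other probe sets gave 0.49 and 0.46, and neither passed (limma adjusted p over probe sets 0.0916 and 0.0542). Ndufa4l2, a paralogue of Ndufa4 known to be induced by hypoxia, had 5.0, 7.98 and 10.65 in HCC, against 5.29, 6.46 and 7.46 in normal livers. Relative to the normal mean HCC 6 stood at 4.25 and HCC 5 at -1.41, with the other 4 tumours between 0.85 and 1.95, so the groups overlapped. The difference of 1.47 ± 0.75 did not pass (limma adjusted p = 0.225). Without HCC 5 it was 2.04 and passed (limma adjusted p = 0.0449), and without HCC 6 it was 0.91. None of the 4 Sdhaf assembly factors of complex II passed.

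**Figure D3:**
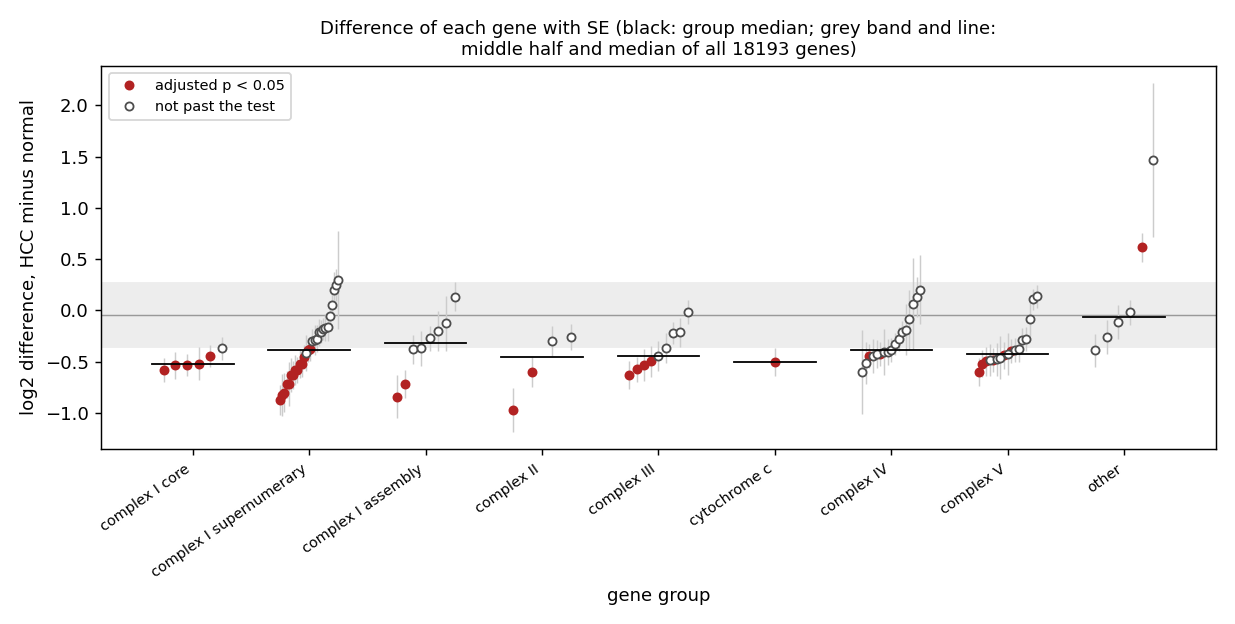
Difference of each of the 96 genes, HCC minus normal liver on the log2 scale, grouped by complex, with SE bars, filled points for genes past the test, black lines for group medians and a grey band for the middle of all genes. Most points of every complex lie below 0, with Sdhb lowest at -0.97, and Ndufa4l2 and Cox7a2l lie highest at 1.47 and 0.62.

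Tumours differed in how far their respiratory chain RNA fell short of the normal mean. Averaged over the 82 subunit and cytochrome c genes, HCC 6 lay at -0.54, HCC 4 at -0.50, HCC 1 at -0.39, HCC 5 at -0.36, HCC 3 at -0.28 and HCC 2 at -0.12. All 6 were negative, and the SD of the same average over normal livers was 0.0494. The same averages over all genes lay between -0.05 and -0.01. Complex by complex, HCC 6 was lowest for the complex I core (-0.76), complex II (-0.91) and complex III (-0.69), while HCC 4 was lowest for complex V (-0.56). HCC 4 was also lowest over all 17 genes of complex IV (-0.48), but over its 10 liver-type genes HCC 1 and HCC 4 lay together (-0.52 and -0.50). HCC 5 was lowest for cytochrome c (-0.82). HCC 2 was the highest tumour for complex III and complex V (both -0.13) yet lay below all 6 normal livers in both, and it lay within the normal range for cytochrome c (-0.04) and complex IV (0.08). Its complex I core, at -0.40, lay as low as in HCC 1 (-0.40) and HCC 3 (-0.39). Over the liver-type genes of complex IV alone, HCC 2 stood at -0.21 and HCC 3, HCC 5 and HCC 6 between -0.28 and -0.41.

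**Figure D4:**
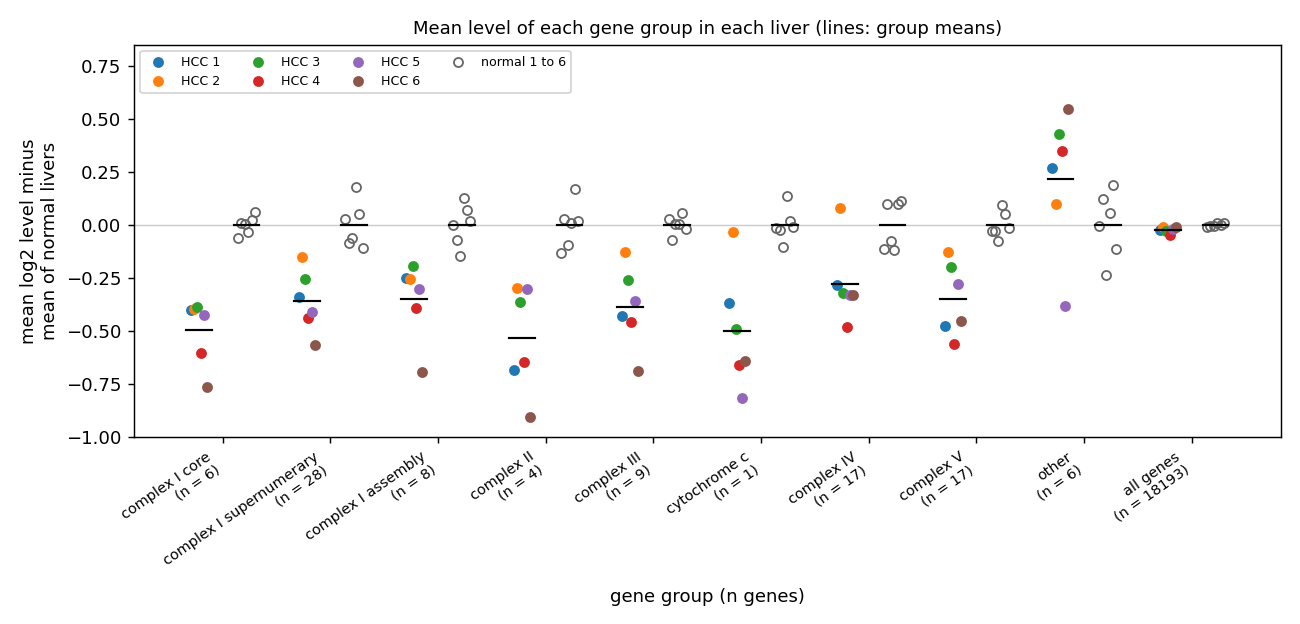
Mean difference from the normal mean, on the log2 scale, over the genes of each complex in each HCC (left, filled) and each normal liver (right, open), with lines for group means. All 6 HCC lie below 0 in the complex I core and complexes II, III and V, whereas HCC 2 lies at 0.08 over all 17 genes of complex IV. Over the 10 liver-type genes of complex IV, not drawn here, HCC 2 lies at -0.21.

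By count, HCC 6 and HCC 4 again had the most genes under the normal range and HCC 2 the fewest. HCC 6 had 75 of the 96 genes below all 6 normal livers, or 78.1%, against 30% of all genes in that tumour, and HCC 4 had 72, or 75%, against 26.4%. HCC 1 had 68 (70.8%, against 24.1% of all genes), HCC 5 had 67 (69.8%, against 24.3%) and HCC 3 had 56 (58.3%, against 25.6%). HCC 2 had 44, or 45.8%, against 21.8%. Between 3 and 10 of the 96 genes lay above all 6 normal livers in a tumour, or 3.12% to 10.4%, against 20.1% to 24.8% of all genes. HCC 6 held the lowest of the 6 tumour values in 41 of the 96 genes and HCC 4 in 28, whereas over all genes they held it in 21.5% and 15.7%. HCC 2 held the highest in 47, or 49%, against 18% of all genes. The genes share each tumour's RNA and array, so they are not independent. The SD was larger among HCC than among normal livers in 79 of the 96 genes, with a median SD of 0.239 in HCC and 0.132 in normal livers, and in 11769 of all 18193 genes.

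**Figure D5:**
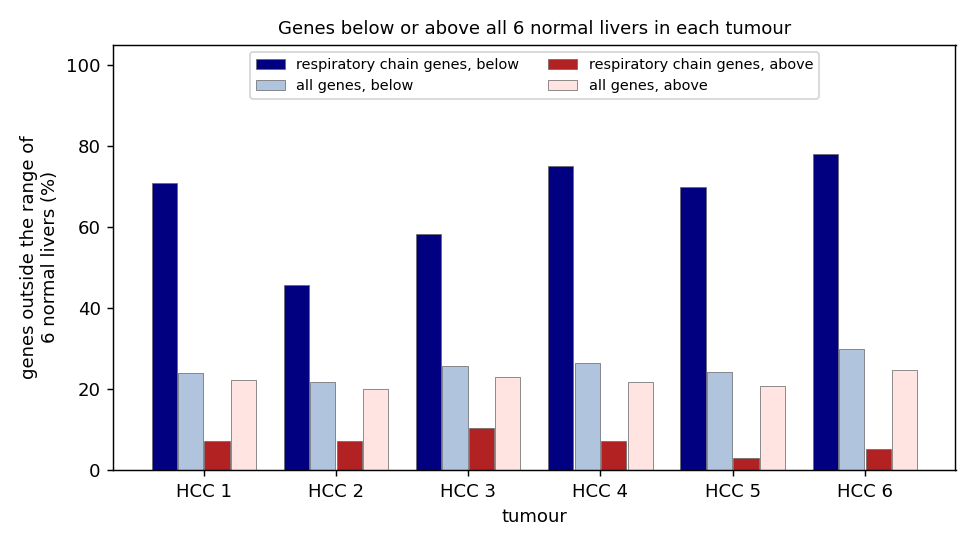
Share of the 96 genes, beside the share of all 18193 genes, that lay below (or above) all 6 normal livers in each HCC, in percent. In all 6 tumours the share of respiratory chain genes below the normal range exceeds that of all genes, with 78.1% in HCC 6 and 45.8% in HCC 2.

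The genes are scattered over the genome, and the 6 on chromosome 4 had the lowest median difference of any chromosome. These were Ndufb6, Ndufs5, Ndufaf4, Ndufaf6, Sdhb and Uqcrh, of which 4 were lower and all 6 had a negative difference, with a median of -0.73. Uqcrh differed by only -0.02. All 1087 genes measured on chromosome 4 had a median of -0.15, and 10.5% of them were lower. By tumour, the median over all chromosome 4 genes was -0.14, -0.12, -0.10, -0.23, -0.04 and -0.29 in HCC 1 to HCC 6. Atpif1, which was higher, also lies on chromosome 4. The part of the chromosome in these values was not tested.

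Other mitochondrial genes were read from 8 lists of 235 genes, of which 214 were measured. Of these, 44 were lower and 4 higher, and 166 did not pass, where 7.24% of all genes were lower and 6.48% higher. The 13 subunits encoded in mitochondrial DNA were not analysed here. Of 34 further assembly factors of the chain, 7 were lower and none was higher, with a median of -0.33. Acad9, which works with Ndufaf1 in building complex I, had the most negative difference of these at -1.53 (limma adjusted p = 0.000122), and Sco2, a copper chaperone of complex IV, differed by -1.01. Of 24 carriers and electron donors 9 were lower, among them Etfdh (-0.92), which feeds electrons from fatty acid oxidation into ubiquinone, and the dicarboxylate carrier Slc25a10 (-0.89). Of 18 citric acid cycle genes 6 were lower, among them the succinyl-CoA ligase subunits Sucla2 (-0.78) and Suclg2 (-0.59).

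Of 24 regulators of mitochondrial biogenesis 5 were lower, among them the deacetylase Sirt3 (-1.06) and the thyroid hormone receptor Thrb (-0.71). Of 76 mitochondrial ribosomal proteins 12 were lower, with Mrps10 (-0.75) and Mrpl47 (-0.62) at the low end, and 2 were higher, Mrps6 (0.54) and Mrpl52 (0.53). Of 13 genes of supercomplexes and cristae 2 were lower, Apoo (-0.61) and Higd2a (-0.50). Import genes did not lean one way: 3 of 25 were lower, 2 were higher, Timm10b (0.55) and Tomm20 (0.40), and their median of -0.03 was close to that of all genes. Among bright genes alone, with a mean level of at least 12, 8 of the 40 list genes there were lower, or 20%, against 19.5% of all bright genes. With the fit repeated over bright genes alone 14 of the 40 were lower, or 35%, against 29.9%. Both shares are near the background of bright genes. They cover 40 of the 214 measured list genes and, by the main calls, 8 of the 44 lower ones. The dimmer list genes were not set against genes of their own level.

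In whole tissue, fewer hepatocytes and less RNA per hepatocyte cannot be told apart. The hepatocyte markers Alb, Apoa1, Ttr, Cps1 and Hnf4a were bright in all 12 samples, and none of the 5 passed the test. Their differences ran from -0.86 to 0.09, with a median of 0.07. The mean over the 5 lay between -0.46 (HCC 1) and 0.10 in HCC, against -0.07 to 0.06 in normal livers, relative to the normal mean. Of 5 stellate and fibroblast markers 1 was higher, Col1a1 (3.27), and 1 lower, Lrat (-2.52). Their mean was 3.24 in HCC 6, -1.58 in HCC 1 and 0.01 to 0.66 in the other 4 tumours, against -0.56 to 0.59 in normal livers. The 6 Kupffer and myeloid markers, with Clec4f lower (-2.36), had a mean of -1.01 to 1.32 in HCC, against -0.85 to 0.38 in normal livers, and the 4 T and NK cell markers had -0.12 to 1.46 in HCC, against -0.41 to 0.49 in normal livers. HCC 6 was highest in the stellate, myeloid and T cell lists and lowest in the average of the respiratory chain. HCC 4, next lowest for the chain, stood at 0.01, -0.61 and 0.51 in these 3 lists, and HCC 1 after it at -1.58, -1.01 and 0.59. The part of these cells in the result was not tested. Of the 4 endothelial markers 1 was lower, Stab2 (-1.11), and none of the B cell, cholangiocyte, muscle or brown fat markers passed.

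Y-linked genes were near the floor in 4 arrays (HCC 1, HCC 4, normal 1 and normal 3) and clearly present in the other 8. Within the 8 arrays with that signal, 82 of the 96 differences were negative, with a median of -0.38, against -0.05 over all genes. After adjustment 2 were lower, or 2.08%, where 3.09% of all genes were lower. Within the 4 arrays without it, 80 were negative, with a median of -0.38, against -0.03 over all genes. There 0 passed in limma, where only 0.203% of all genes were lower, so this count says little about the 96. The difference between these 2 sets of arrays was tested as an interaction, which 0.154% of all genes passed and none of the 96 (smallest limma adjusted p 0.563, 1 at an unadjusted p under 0.05).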

How the data were processed

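The deposited intensity values were linear signals of 45101 probe sets per array, from 0.104 to 82665.9, and the 2% trimmed mean of each of the 12 arrays, computed here, was 500. The sources used here do not name the software that made them. Per the labels' protocols, RNA was isolated from frozen tissue with TRIzol and columns, treated with DNase and labelled by one-cycle cDNA synthesis. Here log2(intensity + 16) was quantile normalized over all probe sets. Of these, 34945 named 1 gene, and each of 18193 genes kept its brightest by mean over the arrays. A linear model with moderated variance (limma 3.58.1, R 4.3.3) gave HCC minus normal liver per gene with a two-sided p, adjusted over all 18193 genes by the method of Benjamini and Hochberg, at a threshold of 0.05. The fit was also run on data simulated from the mean and SD of each gene here, and its results are not given. Motifs and figures used Python 3.11.15, numpy 2.4.6, pandas 2.3.3 and matplotlib 3.10.9. Chromosomes and gene positions are those of the GRCm38.p6 annotation, matched by gene ID, and 165 genes had none.

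The genes and the lists were chosen with earlier results of these data known. Named genes were, in each group by complex, up to 6 genes past the test by size, or the 2 smallest p where none passed. The gene with the largest SD among HCC and fixed isoform pairs were added, with Atpif1, and from each other list up to 2 genes past the test in a direction. Of the 96 genes, 13 are read by a probe set with the Affymetrix suffix s and 5 by one with the suffix x, which mark probes that may match other transcripts, so their values are uncertain. Alternatives were other scalings, pseudocounts of 1 and 64, filters on dim genes, other probe set rules, other variance models, an exact Wilcoxon test, a threshold of 0.01, a replicate block, a Y-linked covariate and leaving out arrays. The p-values measure the spread between these samples, and the number of arrays limits the precision.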

Additional observations from a re-analysis of the deposited data

Results flagged for a closer look

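In 118 groups of 6 arrays, the highest or lowest array was set against the others by Dixon's test, and 5 groups (4.24%) stood out, where chance gives about 1 in 20. Ndufb1 had 1 normal liver at 9.07, above the other 5. Cox7b2, near the floor of the scale, had 1 HCC at 5.19 and 1 normal liver at 5.73, each above the rest of its group. Ndufa4 had 1 normal liver at 13.33, below the other 5. In the mean over complex IV genes relative to normal livers, HCC 2 stood at 0.079, above the other 5 tumours. It stood at 0.49 over the 7 tissue-restricted genes of complex IV and at -0.21 over the 10 liver-type genes.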

How the results depend on the processing

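Of 96 genes, 36 were lower and 1 higher in HCC. The lower count follows for each alternative, with the share of all genes lower in brackets, which was 7.24% in the main fit. Intensities scaled as deposited gave 37 (5.98%), and centring each array on its median gave 45 (7.12%). Pseudocounts of 1 and 64 gave 31 (6.65%) and 45 (8.59%). After the filter on dim genes 46 of 92 were lower (11.6%). The count was 30 when each gene took the average of its probe sets (6.38%). With every probe set counted, 53 of 190 were lower (5.07% of all probe sets). Trended and robust variance gave 46 (8.51%), array weights 38 (7.54%), the exact Wilcoxon test 41 (6.07%) and the Y-linked covariate 36 (7.72%). The lower count was 7 at a threshold of 0.01 (2.53%), 2 in arrays with Y-linked signal (3.09%) and 0 in those without (0.203%). With 1 array left out it was 21 to 40 (5.05% to 7.93%). The higher count, now with the share of all genes higher in brackets, was 0 with median centring (5.89%) and at a threshold of 0.01 (2.83%). It was also 0 in arrays with Y-linked signal (3.16%) and in those without (0.22%). It was 2 with every probe set counted (5.14%), and 1 to 2 when 1 array was left out (4.92% to 6.72%). In the other lists 44 of 214 genes were lower, where 7.24% of all genes were. That count was 6 in arrays with Y-linked signal (3.09% of all genes lower) and 0 in those without (0.203%). It was 20 to 45 when 1 array was left out (5.05% to 7.93%). The smallest were 20 without normal 5 (5.08%), 25 without normal 4 (5.05%), 25 without normal 6 (5.42%) and 26 without normal 3 (5.65%). Refitted over genes with a mean level of at least 12, only 40 list genes remained. Of these 14 were lower, or 35%, against 29.9% of all genes at that level. The mean over subunits, -0.36 over all tumours, was -0.34 to -0.50 under other scalings, pseudocounts and probe set rules. Both groups are numbered 1 to 6, and same-number arrays had correlations of deviations of -0.0147 to 0.0778, too low to treat them as pairs. With the replicate number as a block 12 of the 96 genes, and 15 in the other lists, were lower, against 4.61% of all genes.

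None of the 29 named genes past the test turned sign in the alternatives that give 1 value per gene, and with every probe set counted 1 dim probe set of Cox5b was higher. Of the 29, 18 kept their call with each array left out. Genes not past the test did turn: Cox8b gave -0.056 with array weights, Cox6b2 gave -0.15 in arrays with Y-linked signal, and in arrays without it Ndufaf6 gave 0.46, Cox8b -0.28, Cox6a2 0.37, Cox7a1 -0.33, Cox7b2 0.067 and Cox8c 0.012. With 1 array left out Cox8b ranged from -0.16 to 0.37, Cox6a2 from -0.29 to 0.067, Ndufaf6 from -0.31 to 0.059 and Cox7b2 from -0.32 to 0.019. The cause was not tested, except that the sets by Y-linked signal hold fewer arrays. Dim probe sets, 9 of the 96 below the median gene at 7.71, limit what can be said of the tissue-restricted genes.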

Other observations

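Some respiratory chain genes were covered by probe sets that name several genes, which the selection left out. Of 10 such probe sets, 3 were lower in HCC in limma, adjusted over probe sets. The probe set of Ndufab1, the mitochondrial acyl carrier protein and a complex I subunit, and its pseudogene had 11.6 ± 0.34 in HCC and 12.4 ± 0.09 in normal livers (SD), a difference of -0.81 (limma adjusted p = 0.0115). The probe set of Ndufs5 and its pseudogene differed by -0.54 (limma adjusted p = 0.0265), beside -0.63 for the probe set that names Ndufs5 alone. A dim probe set that names both Yjefn3 and Ndufa13 differed by -0.65 (limma adjusted p = 0.0263). The probe set of Ndufs6 and Ndufs6b differed by -0.33 and did not pass (limma adjusted p = 0.231). The brighter of those that name Ndufb4 with Ndufb4b and Ndufb4c differed by -0.27 (limma adjusted p = 0.312), whereas the dim probe set of Ndufb4 alone gave 0.30. Over the 94 other single-gene probe sets of the 96 genes, 80 had the same sign as the brightest and 14 the opposite sign.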
